A study of Saccharomyces cerevisiae with 12 samples.

Results

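The total RNA of mex67-5 xpo1-1 and wild-type budding yeast was compared after 1 h at 37 °C. The comparison took every total-lysate library of the series, 6 of its 12 libraries, 3 from mex67-5 xpo1-1 and 3 from wild type, and asked which mRNAs, gene functions and antisense RNAs differed in level. The deposited counts lie on the strand opposite to the RNA, so an mRNA was read from the annotated feature that runs along its other strand, covers at least 0.5 of it and has at least 0.8 of its own length inside it. This gave 3190 of 6005 coding genes, of which 3015 had a mean count above 40 and were tested, 175 fell under that limit, and 2815 genes had no such feature and were not analysed here.

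Mex67 with its partner Mtr2 is the general export receptor of yeast mRNA, and Crm1 (Xpo1) is the exportin that carries proteins with a leucine-rich export signal and some RNAs through the nuclear pore. The temperature-sensitive alleles mex67-5 and xpo1-1 allow growth at low temperature and lose export function at 37 °C, which is itself a heat shock for any yeast cell. Yeast answers heat and many other stresses by a shared programme in which chaperones and protective enzymes are induced and the genes for making ribosomes are repressed.

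The mex67-5 xpo1-1 strain was described by the study as a MATa strain in which MEX67 is disrupted by HIS3 and XPO1 by TRP1, with both temperature-sensitive alleles on plasmids, and the wild type as BY4741, a MATa strain with deletions at HIS3, LEU2, MET17 (MET15) and URA3. The GEO labels name BY4741 for both. Cultures of both strains were turned into spheroplasts by digesting the cell wall, left to recover and then shifted to 37 °C, so no unshifted sample stands beside them and a change with temperature cannot be told apart from a difference at rest. The replicates were called biologically independent by the study. Total counts per library ran from 32754083 to 35396033 in mex67-5 xpo1-1 and from 30881563 to 37361004 in wild type. Features of the mitochondrial chromosome took 9.47 to 14.3% of the counts in mex67-5 xpo1-1 and 4.34 to 6.18% in wild type, and the part of this in the results was not tested. Spearman correlations over features were 0.984 to 0.990 between mutant libraries, 0.989 to 0.993 between wild-type libraries and 0.927 to 0.941 across the strains. In bulk RNA, fewer cells of a type and less RNA per cell cannot be told apart, and without a spike-in each level is relative to the library.

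The genes of the strain construction were read first. MEX67 had 253, 282 and 268 CPM in mex67-5 xpo1-1 and 69.2, 63.0 and 64.8 CPM in wild type (CPM, counts per 1e6 after TMM scaling), and CRM1 had 390.1, 542 and 459 CPM in mex67-5 xpo1-1 and 397, 430.4 and 439 CPM in wild type. MEX67 was 4.07-fold higher in mex67-5 xpo1-1 by edgeR's quasi-likelihood test (log2 fold change 2.03 ± 0.12, SE, adjusted p = 3.54e-06), while CRM1 did not pass it (log2 fold change 0.14 ± 0.15, adjusted p = 0.466) and its groups overlapped. A point mutation leaves the RNA in place, so neither level checks the alleles. HIS3, the marker at mex67, had 397, 573 and 414 CPM in mex67-5 xpo1-1 and 9.61, 1.55 and 1.37 CPM in wild type. TRP1, the marker at xpo1, had 96.5, 94.4 and 83.9 CPM in mex67-5 xpo1-1 and 20.9, 20.8 and 18.7 CPM in wild type. Both markers were higher (HIS3 6.77 ± 0.72, adjusted p = 9.28e-05; TRP1 2.19 ± 0.11, adjusted p = 2.07e-06), and the groups lay far apart. One wild-type library, replicate 1, held 329 HIS3 counts against 44 and 43 in the other wild-type libraries, and without it the HIS3 log2 fold change was 8.30.

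Other genes went against the strain labels. LEU2, for an enzyme of leucine synthesis, had 189, 255 and 164 CPM in mex67-5 xpo1-1 and 26.5, 25.3 and 21.3 CPM in wild type, and MET17, the sulfhydrylase that builds homocysteine, had 161, 148 and 207 CPM in mex67-5 xpo1-1 and 102, 36.7 and 61.5 CPM in wild type. Wild type thus held 669 to 909 counts at LEU2 and 1040 to 3488 at MET17, both deleted in BY4741. Genes of α cells were read in both strains although both are called MATa. The marker sets were read only in part, 2 of 4 α-specific and 3 of 7 a-specific genes. MATALPHA1, at the mating-type locus, held 0 counts in all 6 libraries, and the reason was not tested. STE3, the receptor of α cells for a-factor, had 93.2, 127 and 112 CPM in mex67-5 xpo1-1 and 239.8, 237 and 272 CPM in wild type. MF(ALPHA)1, a gene for α-factor itself, had 175, 234 and 151 CPM in mex67-5 xpo1-1 and 267, 288 and 263 CPM in wild type. STE2, the α-factor receptor of a cells, had 8.30, 6.79 and 7.87 CPM in mex67-5 xpo1-1 and 2.57, 3.07 and 3.02 CPM in wild type. Per length, STE3 averaged 70.8 RPKM (reads per kilobase and 1e6 counts) in mex67-5 xpo1-1 and 159 RPKM in wild type, and STE2 averaged 4.85 RPKM in mex67-5 xpo1-1 and 1.83 RPKM in wild type. The a-specific genes STE2 (1.41 ± 0.15) and ASG7 (2.78 ± 0.23, with 15 to 18 counts per wild-type library) were higher in mex67-5 xpo1-1, STE3 (-1.17 ± 0.14) and MF(ALPHA)1 (-0.54 ± 0.17) were lower, and the MF(ALPHA)1 call was lost without mutant replicate 1, mutant replicate 3 or wild-type replicate 2 (-0.48, -0.38 and -0.50) and with library totals (-0.33). ASG7 passed the limit on counts only through the mutant libraries, so it had to differ. STE6, an exporter of a-factor, did not pass (0.16 ± 0.10, adjusted p = 0.198) but did with library totals (0.39). These differences cover every library of a group, so strain background and the export alleles cannot be told apart in any result that follows.

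**Figure D1:**
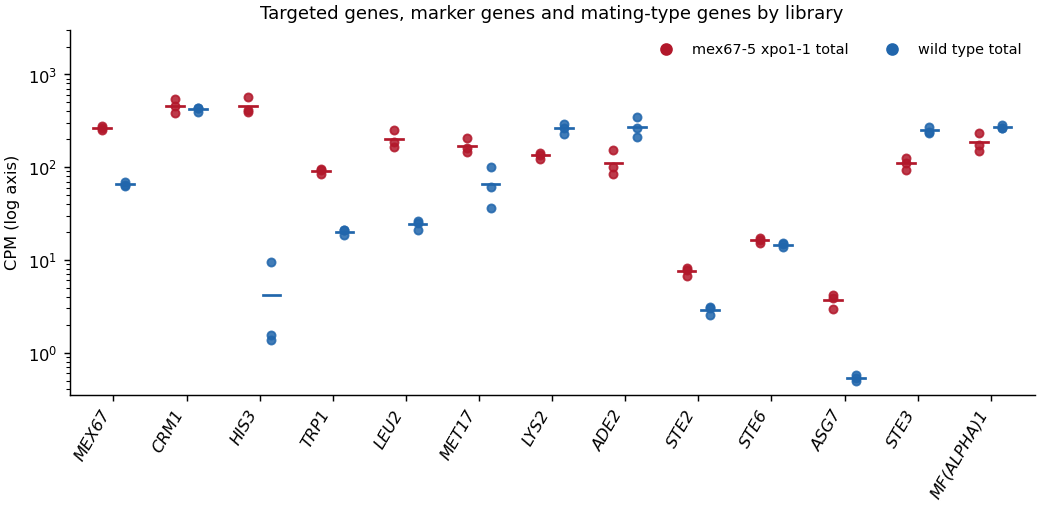
CPM on a log axis of genes used in the strain construction and of mating-type genes, with 3 points per strain and a bar at the mean; mex67-5 xpo1-1 stands left of wild type for each gene. HIS3 lies between 397 and 573 CPM in mex67-5 xpo1-1 and between 1.37 and 9.61 CPM in wild type, and STE3 lies between 93.2 and 127 CPM in mex67-5 xpo1-1 and between 237 and 272 CPM in wild type.

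Across the 3015 mRNAs tested, 581 were higher (19.3%) and 1045 lower (34.7%) in mex67-5 xpo1-1, at an adjusted p under 0.05, and 1389 did not pass. The median log2 fold change was -0.14, with the middle 50% of mRNAs between -0.48 and 0.23. Over all 12360 features of the annotation, which include antisense and other noncoding RNAs, 3329 were higher (26.9%) and 3167 lower (25.6%). The libraries of the strains did not overlap for 1938 mRNAs (64.3%). Of the 3015, 36 had a wild-type mean count of 40 or less and passed the limit on counts only through the mutant libraries, so they had to differ, and 33 of them were higher. Likewise 9 passed it only through the wild-type libraries, all of them lower. Among the 2970 with both means above the limit, 548 were higher and 1036 lower. Large changes leaned the other way from the counts: 192 mRNAs were higher at least 2-fold against 147 lower, and 53 against 21 at least 4-fold. These take in mRNAs that passed the limit on counts through 1 strain only and were not recounted without them. The lean is therefore not free of that selection. The split depends on the scaling. With library totals in place of TMM factors all features shifted up by a median of 0.23, the median of the mRNAs was 0.09 rather than -0.14, and 884 mRNAs were higher and 531 lower.

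The change differed with abundance. The mRNAs were ranked by mean RPKM over the 6 libraries and split into 5 groups of 603, so the ranking shares its libraries with the fold change. The groups keep the 36 mRNAs that passed the limit on counts only through the mutant libraries, 33 of them higher. How these spread over the groups was not counted. In the least abundant group (0.247 to 10.8 RPKM), 200 were higher (33.2%) and 98 lower, with a median log2 fold change of 0.12. The median was -0.08, -0.14 and -0.20 in the 3 groups above it. In the most abundant group, from 63.3 RPKM up, 71 were higher and 324 lower (53.7%), and the median was -0.46. Transcript length showed less of a trend, with medians of -0.18, -0.12, -0.10, -0.06 and -0.23 over 5 groups of rising length. Genes within 30 kb of a chromosome end were more often higher, 65 of 163 (39.9%) against 515 of 2845 farther in (18.1%). Those near the ends were also less abundant, with a median of 11.5 RPKM against 23.3 RPKM, and the comparison varied over the groups of abundance. Near the ends 45 of 78 in the least abundant group were higher, against 154 of 524 farther in. In the next group it was 4 of 25 near the ends against 95 of 578 farther in. In the 3 groups above, 5 of 19, 8 of 23 and 3 of 18 near the ends were higher, against 92 of 584, 106 of 580 and 68 of 579 farther in.

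**Figure D2:**
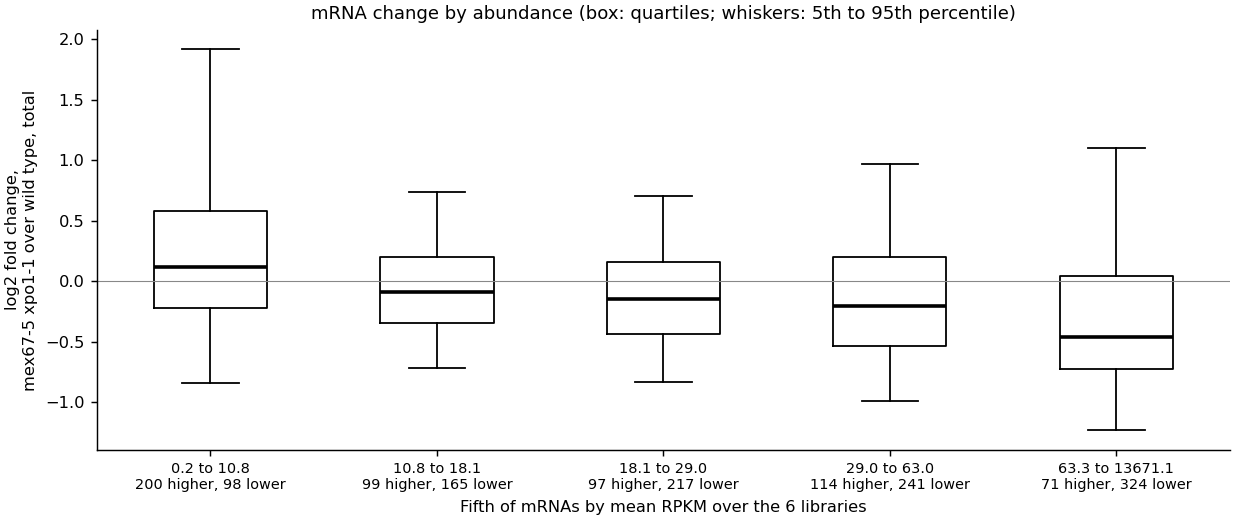
Log2 fold change of mex67-5 xpo1-1 over wild type in total lysate for 5 groups of 603 mRNAs ranked by mean RPKM over the 6 libraries; boxes span the quartiles with the median as a thick line, and whiskers the 5th to 95th percentile. The median is 0.12 in the least abundant group and -0.46 in the most abundant.

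Genes of glycolysis and fermentation were the most abundant per length. TDH3, encoding glyceraldehyde-3-phosphate dehydrogenase, averaged 5923 RPKM in mex67-5 xpo1-1 and 14468 RPKM in wild type. FBA1, for aldolase, averaged 5273 RPKM in mex67-5 xpo1-1 and 12014 RPKM in wild type. PDC1, for pyruvate decarboxylase, averaged 6722 RPKM in mex67-5 xpo1-1 and 9533 RPKM in wild type. TDH3 (-1.29 ± 0.23) and FBA1 (-1.19 ± 0.24) were lower and did not overlap, whereas PDC1 did not pass in edgeR (-0.50 ± 0.23, adjusted p = 0.0931). PDC1 passed in DESeq2 and without mutant replicate 2 (-0.64). IRC13 also ranked among the highest, at 17454 RPKM in mex67-5 xpo1-1 and 9889 RPKM in wild type, but its opposite-strand feature lies over the U3 snoRNA gene SNR17A on the same strand, and the RNAs cannot be told apart.

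The 12 largest increases and 12 largest decreases were taken among called mRNAs with a mean count of at least 200 and no overlap between strains. HIS3, LEU2 and 3 genes of sulfur metabolism were among the 12 increases. STR3, a cystathionine β-lyase, had 56.0, 50.8 and 96.5 CPM in mex67-5 xpo1-1 and 5.87, 1.02 and 2.51 CPM in wild type (log2 fold change 4.41 ± 0.50, adjusted p = 0.000133). MUP3, a low-affinity methionine permease, had 101, 104 and 143 CPM in mex67-5 xpo1-1 and 16.2, 8.09 and 9.47 CPM in wild type (3.36 ± 0.27). MET2, the homoserine acetyltransferase of methionine synthesis, had 58.0, 54.0 and 70.6 CPM in mex67-5 xpo1-1 and 9.81, 5.44 and 5.56 CPM in wild type (3.13 ± 0.23). In each of these the lowest mutant library was more than 5 times the highest wild-type library, and for all of them wild-type replicate 1 was the highest wild-type library. Without that library the log2 fold change of STR3 was 5.24. By the transcript ends of the deposited annotation (sacCer3), STR3 lies at chrVII:154415-156449, MUP3 at chrVIII:26039-28155 and HIS3 at chrXV:721901-722808.

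FRM2, a nitroreductase-like protein, had 16.7, 13.8 and 16.8 CPM in mex67-5 xpo1-1 and 1.26, 0.742 and 0.572 CPM in wild type (log2 fold change 4.18 ± 0.23, adjusted p = 3.12e-06), and its wild-type mean count was under the limit of 40. AAD4, an aryl-alcohol dehydrogenase homologue, had 71.9, 75.2 and 77.6 CPM in mex67-5 xpo1-1 and 9.23, 7.63 and 12.8 CPM in wild type (2.92 ± 0.18). CYB2, the mitochondrial lactate dehydrogenase, had 142, 258 and 119 CPM in mex67-5 xpo1-1 and 13.1, 21.1 and 11.7 CPM in wild type (3.50 ± 0.33), with mutant replicate 2 the highest. The uncharacterised genes YCR102C (3.21 ± 0.14) and YER053C-A (2.77 ± 0.27), YLR460C, a homologue of YCR102C that was 8.03-fold higher, and the meiotic RNA-binding protein gene RIM4 (3.06 ± 0.15) complete the 12. YCR102C and YLR460C may share reads, as may AAD4 with its paralogs.

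The 12 largest decreases follow in the same way. AIF1, for a mitochondrial cell death effector, had 0.682, 0.592 and 0.573 CPM in mex67-5 xpo1-1 and 23.6, 22.8 and 24.2 CPM in wild type, which rests on 21 to 24 counts per mutant library. CHA1, the serine and threonine deaminase, had 17.5, 17.7 and 18.2 CPM in mex67-5 xpo1-1 and 318, 235 and 254 CPM in wild type (log2 fold change -3.92 ± 0.15, adjusted p = 9.04e-07). URA1, the dihydroorotate dehydrogenase of pyrimidine synthesis, had 52.0, 47.2 and 62.5 CPM in mex67-5 xpo1-1 and 452, 471 and 453 CPM in wild type (log2 fold change -3.09 ± 0.15, adjusted p = 1.63e-06). AIF1 was 38.2-fold lower (-5.26 ± 0.13), CHA1 15.1-fold and URA1 8.51-fold, all without overlap. AIF1 passed the limit on counts only through the wild-type libraries. AIF1 lies 5113 bases from the end of chromosome XIV and CHA1 15036 bases from the end of chromosome III.

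RIB4, for lumazine synthase of riboflavin synthesis, had 22.8, 27.3 and 21.9 CPM in mex67-5 xpo1-1 and 167, 147 and 149 CPM in wild type (-2.68 ± 0.13). QDR2, a multidrug transporter, had 20.8, 20.8 and 19.5 CPM in mex67-5 xpo1-1 and 114, 139.9 and 134 CPM in wild type (-2.67 ± 0.12). APE3, the vacuolar aminopeptidase Y, had 153, 194 and 154 CPM in mex67-5 xpo1-1 and 695, 769 and 722 CPM in wild type (-2.12 ± 0.15). For these genes the spread within a strain was small beside the gap between strains. FET3, the multicopper oxidase of iron uptake, had 16.1, 38.2 and 66.2 CPM in mex67-5 xpo1-1 and 258, 110.2 and 169 CPM in wild type (-2.15 ± 0.47, adjusted p = 0.00424), a far wider spread. TIR1, a cell wall mannoprotein, had 5.31, 1.94 and 2.29 CPM in mex67-5 xpo1-1 and 55.3, 18.8 and 50.2 CPM in wild type (-3.72 ± 0.47), with wild-type replicate 2 well below the other wild-type libraries. The sterol-binding secreted proteins PRY1 (-2.40 ± 0.19) and PRY2 (-2.22 ± 0.26) and the decarboxylase ARO10 (-2.31 ± 0.19) were lower too, as was the Ty1 reading frame YLR227W-B (-5.39 ± 0.24), whose reads cannot be assigned to 1 copy and which also passed the limit on counts only through wild type.

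**Figure D3:**
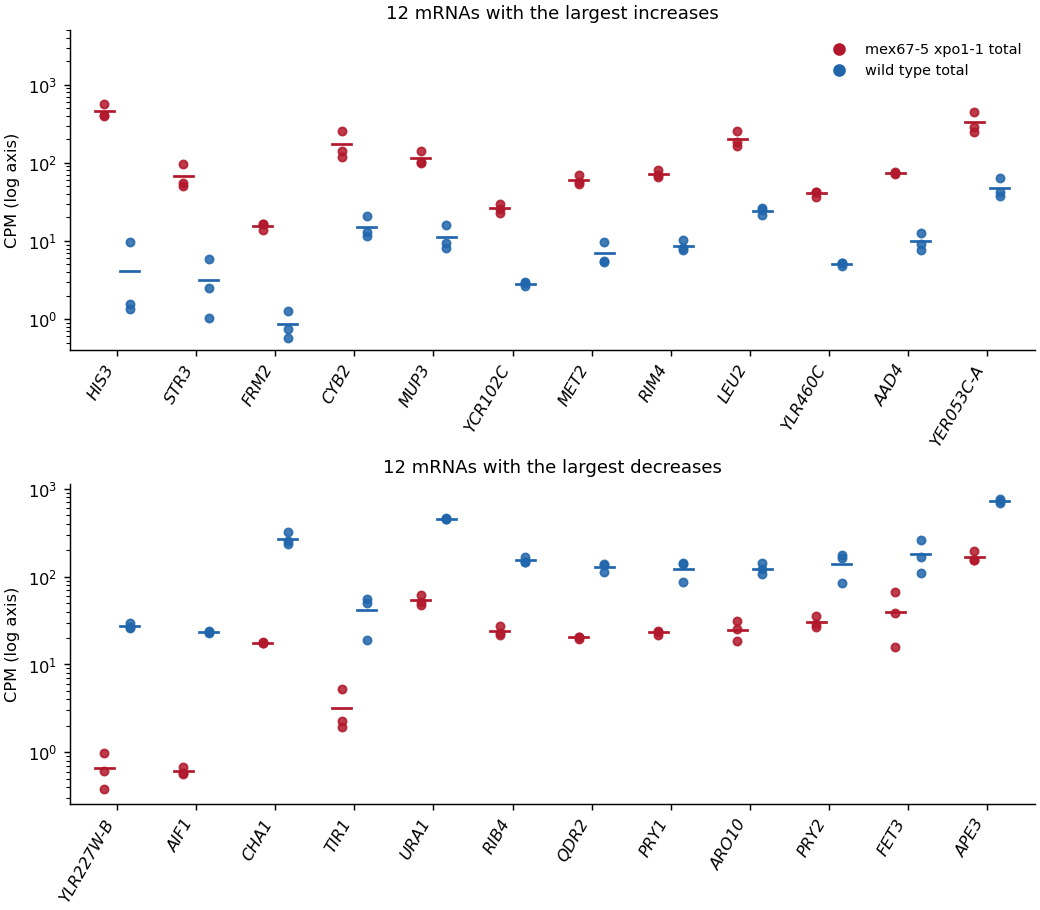
CPM on a log axis for the 12 mRNAs with the largest increases (upper panel) and the 12 with the largest decreases (lower panel), 3 libraries per strain with a bar at the mean and mex67-5 xpo1-1 left of wild type. The strains do not overlap for any of them, which the selection required; HIS3 and STR3 show the wild-type library that lies above its replicates.

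The opposite-strand features of ASG7, ATG8, DBP2, DCP1, MDJ1, MET2, MET5, NUP145, PDC1, PMA1, SNQ2, SPO11, SSE2, SUB2, SUL2, TRR1, TSL1, URA2, UTP14, YLR227W-B and YRA1 also overlap a neighbouring coding gene on the strand of the mRNA, so reads of that neighbour may enter their values. Paralogs with similar sequence, such as the ribosomal protein pairs, TDH3 and its homologues, TEF1 and the PAU genes, may exchange reads. Gene lists are described below by their counts and medians beside those over all mRNAs tested (581 higher, 1045 lower, median -0.14; with library totals 884 higher, 531 lower, median 0.09).

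Genes for making proteins were lower as groups. Of 80 cytosolic ribosomal protein mRNAs tested, 1 was higher, 67 lower and 12 did not pass the test, with a median log2 fold change of -0.62 and 71 without overlap. The median member, centred on its own mean, stood at -0.20, -0.28 and -0.45 in mex67-5 xpo1-1 and 0.58, 0.14 and 0.18 in wild type (log2 CPM). RPL14A, of the large subunit, had 84.9, 90.7 and 74.2 CPM in mex67-5 xpo1-1 and 234, 165 and 162 CPM in wild type (log2 fold change -1.17 ± 0.17, adjusted p = 0.000479), and RPS23A, of the small subunit, had 202, 229 and 200.1 CPM in mex67-5 xpo1-1 and 509, 406 and 473 CPM in wild type (log2 fold change -1.14 ± 0.14, adjusted p = 0.000181). Without mutant replicate 3 the lower count was 40 rather than 67, and with library totals it was 36. Of these mRNAs 75 are in the most abundant group of 603, where 53.7% were lower.

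Factors that assemble ribosomes changed likewise: of 64 tested, 0 were higher, 51 lower and 13 did not pass the test (median -0.56, 21 lower and 2 higher with library totals). RRP15, needed for the large subunit, had 5.36, 4.14 and 4.56 CPM in mex67-5 xpo1-1 and 12.8, 10.6 and 11.9 CPM in wild type (-1.33 ± 0.14). RRP5, an early pre-rRNA processing factor, had 238, 225 and 278 CPM in mex67-5 xpo1-1 and 576, 481 and 481 CPM in wild type (-1.05 ± 0.14), and UTP14 of the small-subunit processome 46.8, 41.8 and 44.3 CPM in mex67-5 xpo1-1 and 105, 80.4 and 90.6 CPM in wild type (-1.06 ± 0.13). Neither strain's libraries overlapped the other's for these genes. Among 20 subunits of RNA polymerases I and III, 1 was higher, 10 lower and 9 did not pass the test (median -0.39, 1 higher and 6 lower with library totals, at a median of -0.16), the largest subunits of polymerase I, RPA190 (-0.82 ± 0.14) and RPA135 (-0.98 ± 0.15), among the lower ones. Of 18 translation factors, 0 were higher, 14 lower and 4 did not pass the test (median -0.62, 1 higher and 10 lower with library totals, at a median of -0.39). TEF1, for elongation factor 1A, had 434, 427 and 375 CPM in mex67-5 xpo1-1 and 1104, 789.8 and 793 CPM in wild type (-1.12 ± 0.17), and the elongation factor gene YEF3 had 3909, 4081 and 4499 CPM in mex67-5 xpo1-1 and 10122, 7944 and 8160.2 CPM in wild type (-1.07 ± 0.19). Mitochondrial ribosomal proteins differed from this pattern in their values: of 31, 3 were higher, 3 lower and 25 did not pass the test, and their median of -0.00070 became 0.23 with library totals, with 8 higher and 1 lower. Without mutant replicate 1, 5 of them were higher.

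Glycolysis and fermentation had the lowest median of the lists drawn in the plot of changes by gene list, -0.97; of 21, 2 were higher, 14 lower and 5 did not pass the test. ADH1, the alcohol dehydrogenase that makes ethanol, had 2350.1, 3403 and 2003 CPM in mex67-5 xpo1-1 and 6492, 7347 and 7743 CPM in wild type (log2 fold change -1.48 ± 0.23, adjusted p = 0.000762). TPI1, triose phosphate isomerase, had 1240.5, 1550.5 and 1125 CPM in mex67-5 xpo1-1 and 2846, 3063 and 3445 CPM in wild type (log2 fold change -1.26 ± 0.18, adjusted p = 0.000485). Every mutant library was below every wild-type library for both. The 2 that were higher are PDC6, a minor pyruvate decarboxylase (1.25), and GPD1 for glycerol synthesis (0.49), whose call was lost without mutant replicate 2 or wild-type replicate 3 (0.41 and 0.42). Of 24 respiratory and TCA cycle genes encoded in the nucleus, 8 were higher, 4 lower and 12 did not pass the test (median 0.28), while the counts were 14 higher and 1 lower with library totals and 13 higher and 2 lower without wild-type replicate 2. The lower count was also 2 without mutant replicate 3. RIP1, the Rieske iron-sulfur protein, had 213, 188 and 165 CPM in mex67-5 xpo1-1 and 64.6, 94.6 and 68.6 CPM in wild type (1.31 ± 0.17). CYT1, for cytochrome c1, had 293, 306 and 231 CPM in mex67-5 xpo1-1 and 118, 147 and 108 CPM in wild type (1.16 ± 0.16). CYT1, CYB2 and the flavohaemoglobin gene YHB1 (1.90 ± 0.24) stood in a list of targets of Hap1, a haem-responsive activator whose gene differs between laboratory strains. Of 7 tested in that list those 3 were higher and NCP1 was lower (-1.01 ± 0.15), while the list median was -0.23, so counts and median differ in sign.

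**Figure D4:**
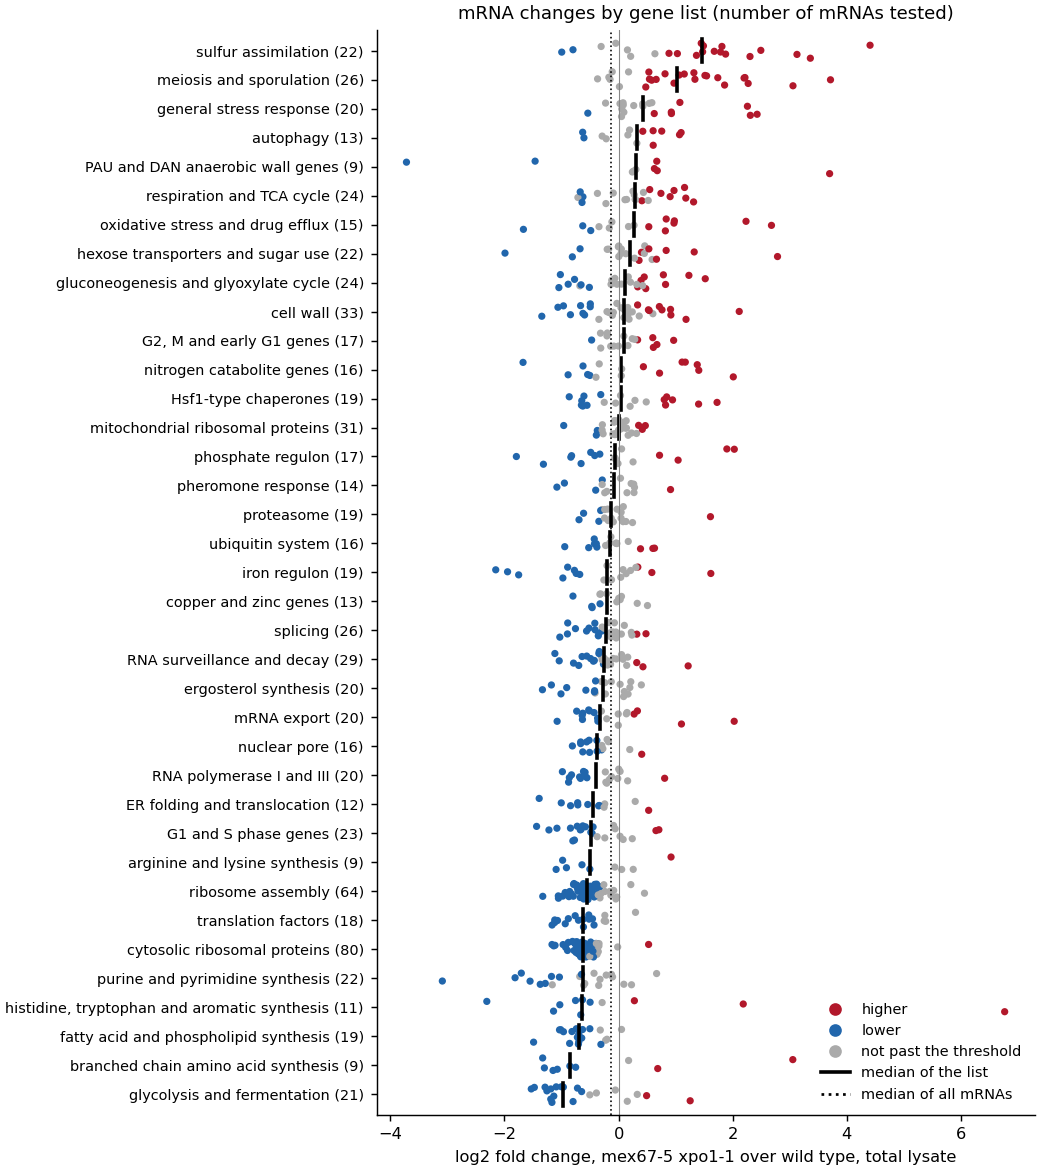
Log2 fold change of mex67-5 xpo1-1 over wild type in total lysate for each mRNA tested in 37 gene lists, with the number tested in brackets; red points were higher, blue lower and grey not past the threshold, black bars mark list medians and the dotted line the median of all mRNAs (-0.14). Sulfur assimilation (1.46) stands at the top and glycolysis and fermentation (-0.97) at the bottom.

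Sulfur assimilation had the highest median of those lists, 1.46, with STR3 the highest member. The pathway takes up sulfate, reduces it and builds methionine, cysteine and S-adenosylmethionine. Of 22 members tested, 15 were higher, 2 lower and 5 did not pass the test, and the higher count was 15 or 16 without any single library and 18 with library totals. The median member stood at 0.66, 0.59 and 0.95 in mex67-5 xpo1-1 and -0.40, -1.03 and -0.74 in wild type (centred log2 CPM). Higher members span sulfate uptake (SUL1 2.49, SUL2 2.30), its activation and reduction (MET3 1.81, MET16 1.88, MET5 0.88, MET10 1.03), methionine uptake (MUP1 1.79, MUP3 3.36) and transsulfuration (STR3 4.41). The lower ones were SAM1, an S-adenosylmethionine synthetase (126, 193 and 140.1 CPM in mex67-5 xpo1-1 and 404, 202 and 309 CPM in wild type), and CYS4 (-0.80), cystathionine β-synthase, while the methionine synthase MET6 did not pass (-0.05). MET17, whose reads in wild type go against the label, belongs to this list (1.37). SUL1 had a wild-type mean count under 40 and passed the limit only through the mutant libraries.

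E-box sequences upstream of higher sulfur genes are shown because that list had the highest median of the 37 lists in the plot. The letters CACGTG, a site known for Cbf1 and Pho4 that reads the same on both strands, were sought in the 300 bases before each annotated transcript start (sacCer3). They occur in 9 of 22 (40.9%) sulfur promoters and in 142 of 3008 (4.72%) promoters of nuclear mRNAs tested. Capitals mark the motif, each sequence runs 5′ to 3′ on the strand of the gene, and the positions are chrXIV:116986-117011 on the plus strand for MET2, chrVIII:25769-25794 on the plus strand for MUP3 and chrXII:732232-732257 on the plus strand for MET17. None of the motifs printed here and below contains another.
MET2: gacgtattttCACGTGatgcgcctca
MUP3: caaattcactCACGTGagggcgtgtg
MET17: tggcaaatggCACGTGaagctgtcga

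Oxidative stress and drug efflux genes were mixed: of 15 tested, 7 were higher, 3 lower and 5 did not pass the test (median 0.27, 9 higher and 2 lower with library totals, at a median of 0.51). Yap1, the main activator of this group, is held out of the nucleus by Crm1 in unstressed cells, as textbook background. GTT2, a glutathione transferase, had 86.2, 85.1 and 79.2 CPM in mex67-5 xpo1-1 and 11.7, 12.4 and 15.1 CPM in wild type (log2 fold change 2.68 ± 0.13, adjusted p = 1.63e-06). FLR1, a multidrug transporter, had 443, 427 and 422 CPM in mex67-5 xpo1-1 and 120.5, 54.5 and 99.6 CPM in wild type (log2 fold change 2.23 ± 0.25, adjusted p = 0.000135). Sulfiredoxin SRX1 (0.98 ± 0.14), old yellow enzyme OYE2 (0.97), glutathione synthesis gene GSH1 (0.83) and YAP1 itself (0.82 ± 0.11) were higher. The peroxiredoxin gene TSA1 had 283, 296 and 269 CPM in mex67-5 xpo1-1 and 1037, 771 and 884 CPM in wild type (log2 fold change -1.67 ± 0.15, adjusted p = 3.73e-05) and was lower, as were the thioredoxin reductase gene TRR1 (-0.63) and the transporter gene SNQ2 (-0.49), whose call was lost without mutant replicate 1, wild-type replicate 1 or wild-type replicate 3 (-0.38, -0.41 and -0.51) and with library totals (-0.26).

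The Yap1 site TTACTAA, sought on both strands, was in 7 of 15 (46.7%) promoters of this list, which holds genes picked as Yap1 or Pdr1 targets, and in 7.41% of all. It was in 9.31% of higher and 5.07% of lower mRNAs. Lower genes that carry it include SNQ2 of this list and URA1, and the pair YCR102C and YLR460C printed below lies outside the list. Matches before 4 higher genes are shown, GTT2 at chrXII:21921-21947 (minus strand), SRX1 at chrXI:277970-277996 (plus strand, with the reverse complement in capitals), and the pair YCR102C at chrIII:305642-305668 and YLR460C at chrXII:1061038-1061064 (both minus strand), whose flanks are alike. Capitals mark the motif.
GTT2: ctttcactgcTTACTAAttcattcgtt
SRX1: ttttccctgaTTAGTAAgctacatcat
YCR102C: atagacaataTTACTAAgtgttcctca
YLR460C: atagacgataTTACTAAgtgttcctca

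General stress genes, a list that includes known targets of Msn2 and Msn4, were higher in part. Of 20, 7 were higher, 1 lower and 12 did not pass the test (median 0.42), with 12 higher and 0 lower with library totals and 11 higher without wild-type replicate 2. HSP30, a plasma membrane protein that restrains the proton pump, had 1508, 1223 and 914 CPM in mex67-5 xpo1-1 and 152, 357 and 168 CPM in wild type (log2 fold change 2.43 ± 0.34, adjusted p = 0.000408). CTT1, cytosolic catalase, had 915, 1160.1 and 821 CPM in mex67-5 xpo1-1 and 141, 278 and 165 CPM in wild type (log2 fold change 2.31 ± 0.26, adjusted p = 0.000135). GRE1, a stress-induced hydrophilin, had 84.2, 84.2 and 79.1 CPM in mex67-5 xpo1-1 and 13.1, 27.7 and 11.1 CPM in wild type (log2 fold change 2.26 ± 0.30, adjusted p = 0.000298). In all of them wild-type replicate 2 was the highest wild-type library, and the strains did not overlap. The trehalose and glycogen genes TSL1 (0.05), NTH1 (0.27) and GLC3 (0.42) did not pass. The stress response element AGGGG was in 15 of 20 (75.0%) of these promoters and in 23.5% of all, and in 28.3% of higher and 21.3% of lower mRNAs. It was found before CTT1 but not before HSP30 or GRE1.

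Chaperones of the heat shock factor Hsf1 went both ways: of 19, 6 were higher, 7 lower and 6 did not pass the test, with a median of 0.03. HSP42, a small heat shock protein, had 748, 982 and 766 CPM in mex67-5 xpo1-1 and 231, 298 and 226 CPM in wild type (log2 fold change 1.73 ± 0.17, adjusted p = 6.32e-05). APJ1, a nuclear and cytosolic Hsp40, had 173, 211 and 168 CPM in mex67-5 xpo1-1 and 69.6, 75.7 and 63.5 CPM in wild type (log2 fold change 1.40 ± 0.13, adjusted p = 4.99e-05). The Hsp70 partners SIS1 (0.80), MDJ1 (0.82) and SSE2 (0.84) and the sorting factor CUR1 (0.95) were also higher. HSP60, the mitochondrial chaperonin, had 311, 450.2 and 374 CPM in mex67-5 xpo1-1 and 699, 652 and 716 CPM in wild type (log2 fold change -0.86 ± 0.16, adjusted p = 0.0018). SSA1 (-0.65), SSA2 (-0.61), HSC82 (-0.63), SSE1 (-0.55), CNS1 (-0.65) and SBA1 (-0.31) were lower too, and HSP82 did not pass (-0.05). The lower count was 4 without mutant replicate 1 and without mutant replicate 3, and 3 with library totals, with 8 higher. The calls of SSA1, SSA2 and SBA1 were among those lost (SSA1 -0.43, SSA2 -0.39 and SBA1 -0.08 with library totals), and SSA1 overlapped between strains. Both strains had been heated and no unshifted sample was taken, so these values compare levels after the shift and not the responses to it.

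RPN4, the transcription factor for proteasome genes, had 258, 231 and 270.2 CPM in mex67-5 xpo1-1 and 87.2, 83.8 and 77.8 CPM in wild type (log2 fold change 1.61 ± 0.12, adjusted p = 1.35e-05). Of 19 genes in the list, RPN4 was the 1 higher, 4 subunits were lower and 14 did not pass, at a median of -0.13 that was 0.10 with library totals, with 3 higher and 2 lower. The lower count was 2 without mutant replicate 3 and without wild-type replicate 1. PRE2, a catalytic subunit, had 56.8, 51.0 and 49.2 CPM in mex67-5 xpo1-1 and 89.7, 87.9 and 76.2 CPM in wild type (log2 fold change -0.69 ± 0.12, adjusted p = 0.00105). PRE9, the α3 subunit gene, had 58.5, 57.6 and 55.5 CPM in mex67-5 xpo1-1 and 95.9, 85.1 and 81.5 CPM in wild type (log2 fold change -0.61 ± 0.11, adjusted p = 0.00143). The Rpn4 site GGTGGCAAA, on either strand, was in 15 of 19 (78.9%) promoters of the list and in 1.40% of all, and the copies before PRE2 (chrXVI:732184-732212) and PRE9 (chrVII:761223-761251), both on the plus strand, are shown because these lower genes carry it, with the motif in capitals.
PRE2: acagcaaaagGGTGGCAAAacgaagaata
PRE9: ttaccctgcaGGTGGCAAAaaatttatag

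Ribosome assembly promoters held their known elements often. The PAC letters GCGATGAG were in 38 of 64 (59.4%) of them against 4.82% of all, and the RRPE letters TGAAAATTT in 32.8% against 4.39%, both strands searched. PAC was in 0.517% of higher and 8.33% of lower mRNAs over the whole set, the widest ratio of shares among the 15 motifs searched. The PAC copies nearest the start of BMS1 (chrXVI:143262-143289, minus strand), a GTPase of small-subunit assembly that was lower (-0.98 ± 0.13), and of UTP14 (chrXIII:82985-83012, plus strand) are given, with the motif in capitals.
BMS1: aattttcaagGCGATGAGctgaagtgaa
UTP14: aattcctatgGCGATGAGctgaaaaaat

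Meiosis and sporulation genes are mostly silent in vegetative haploid cells, and the limit on counts selects among them. Of 46 listed, 33 could be read, 7 of these fell under the limit and 26 were tested. Of those tested, 6 had a wild-type mean count of 40 or less and passed the limit only through the mutant libraries, so they had to differ. Of the other 20, 14 were higher, 0 lower and 6 did not pass the test. RIM4, which represses translation of meiotic mRNAs, had 82.4, 66.1 and 70.9 CPM in mex67-5 xpo1-1 and 10.4, 7.70 and 8.23 CPM in wild type (log2 fold change 3.06 ± 0.15, adjusted p = 1.65e-06). SPS22, needed for the spore wall, had 3.08, 3.01 and 6.08 CPM in mex67-5 xpo1-1 and 0.409, 0.283 and 0.223 CPM in wild type (log2 fold change 3.71 ± 0.39, adjusted p = 8.36e-05), and SPO13, which controls meiosis I, had 4.03, 2.87 and 4.56 CPM in mex67-5 xpo1-1 and 0.672, 0.813 and 0.986 CPM in wild type (log2 fold change 2.22 ± 0.25, adjusted p = 0.000127), both among the 6. NDT80, the activator of middle meiosis, had 6.64, 6.62 and 9.45 CPM in mex67-5 xpo1-1 and 3.65, 3.78 and 3.47 CPM in wild type (log2 fold change 1.06 ± 0.17, adjusted p = 0.000975). SPS22, SPO13 and NDT80 stayed under 10 CPM in every library, and the strains did not overlap. The markers set for meiotic diploids were not uniform, with SPO11 (1.34) and HOP1 (0.48) higher and SPS4 not past the test (-0.15). HOP1 did not pass without mutant replicate 3, wild-type replicate 1 or wild-type replicate 3 (0.39, 0.42 and 0.47). Of the 26 genes tested, 23 are in the least abundant group of 603, where 33.2% were higher. That share was not freed of genes that passed the limit only through the mutant libraries.

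Nucleotide synthesis was lower in part: of 22, 0 were higher, 9 lower and 13 did not pass the test (median -0.63, 1 higher and 8 lower with library totals, at a median of -0.41), and 16 were lower without mutant replicate 2. Besides URA1, URA4 had 28.6, 46.1 and 31.8 CPM in mex67-5 xpo1-1 and 154, 108 and 113 CPM in wild type (log2 fold change -1.81 ± 0.21, adjusted p = 0.000134) and URA2, the first enzyme of the pyrimidine path, had 876, 1248 and 1108 CPM in mex67-5 xpo1-1 and 3091, 3164 and 3219 CPM in wild type (log2 fold change -1.55 ± 0.18, adjusted p = 0.000134). Both strains are described as ura3 mutants, and URA3 was not among the mRNAs read. Of 19 fatty acid and phospholipid genes, 0 were higher, 15 lower and 4 did not pass the test (median -0.70). ELO1, a fatty acid elongase, had 64.2, 80.4 and 57.3 CPM in mex67-5 xpo1-1 and 196, 183 and 188 CPM in wild type (log2 fold change -1.49 ± 0.14, adjusted p = 5.11e-05), and the synthase subunit gene FAS2 had 1450.0, 1998 and 1566 CPM in mex67-5 xpo1-1 and 3798, 3012 and 2985 CPM in wild type (-0.97 ± 0.19). Branched-chain amino acid synthesis had 9 members, of which 2 were higher, 6 lower and 1 did not pass the test. ILV5 (-1.33 ± 0.18), LEU1 (-1.30 ± 0.14) and BAT1 (-1.15 ± 0.14) were lower, and LEU2 and the permease gene BAP3 were the higher ones.

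Genes of the transport machinery went both ways. Of 20 mRNA export genes, 4 were higher (MEX67 of the strain construction among them), 10 lower and 6 did not pass the test (median -0.33, 5 higher and 5 lower with library totals). Without wild-type replicate 3, 2 of them were higher. SUB2, the TREX helicase, had 221, 262 and 216 CPM in mex67-5 xpo1-1 and 533, 499 and 440.3 CPM in wild type (log2 fold change -1.08 ± 0.14, adjusted p = 0.000268), and DBP2, a nuclear helicase, had 129, 76.5 and 98.1 CPM in mex67-5 xpo1-1 and 188, 155 and 161 CPM in wild type (log2 fold change -0.73 ± 0.19, adjusted p = 0.00891). HRP1, a shuttling mRNA-binding protein of 3′ end formation, had 319.7, 259.9 and 330.3 CPM in mex67-5 xpo1-1 and 155, 138 and 131 CPM in wild type (log2 fold change 1.10 ± 0.14, adjusted p = 0.000226). DBP2 did not pass in a fit over all 12 libraries (-0.75). The export adaptor gene YRA1 (-0.01) and MTR2, the partner of MEX67 (0.15), did not pass. Among 16 nucleoporins, 1 was higher, 10 lower and 5 did not pass the test (median -0.38, 2 higher and 4 lower with library totals, at a median of -0.15), with NUP145 (-0.81 ± 0.12), NUP133 (-0.66 ± 0.10) and NUP1 (-0.66 ± 0.11) lower. Among 29 genes of RNA surveillance and decay, 3 were higher, 12 lower and 14 did not pass the test (median -0.25, 4 higher and 6 lower with library totals, at a median of -0.03). XRN1, the 5′ to 3′ exonuclease, had 265, 336 and 327 CPM in mex67-5 xpo1-1 and 661, 634 and 614 CPM in wild type (log2 fold change -1.04 ± 0.14, adjusted p = 0.000325), and the decapping subunit gene DCP1 was higher (1.22 ± 0.14).

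Of 23 G1 and S phase genes, 2 were higher, 14 lower and 7 did not pass the test (median -0.49, 2 higher and 9 lower with library totals, at a median of -0.26). RNR1, the large subunit of ribonucleotide reductase, had 91.5, 101 and 87.1 CPM in mex67-5 xpo1-1 and 313, 191 and 252 CPM in wild type (log2 fold change -1.44 ± 0.18, adjusted p = 0.00021), and the G1 cyclin gene CLN2 had 21.1, 24.0 and 19.7 CPM in mex67-5 xpo1-1 and 53.7, 32.4 and 50.6 CPM in wild type (log2 fold change -1.08 ± 0.18, adjusted p = 0.00114). Of 17 later cell cycle genes, 5 were higher, 1 lower and 11 did not pass the test (median 0.09, 8 higher and 0 lower with library totals, at a median of 0.31). Of 13 autophagy genes, 6 were higher, 2 lower and 5 did not pass the test (median 0.32, 8 higher and 1 lower with library totals, at a median of 0.55), with ATG8 (1.10 ± 0.17), ATG3 (1.07 ± 0.10) and the kinase gene ATG1 (0.76 ± 0.14) higher. Of 19 iron regulon genes, 3 were higher, 8 lower and 8 did not pass the test, while with library totals 6 were higher and 7 lower, and the median of -0.20 became 0.06. The lower ones were led by FET3, FRE5 (-1.95 ± 0.24) and FIT2 (-1.75 ± 0.36), and the copper-responsive reductase gene FRE7 was higher (1.62 ± 0.25). The remaining lists, which include sugar transport, nitrogen, phosphate, cell wall, sterol, endoplasmic reticulum and splicing genes, had medians between -0.50 and 0.30, apart from histidine, tryptophan and aromatic synthesis (-0.63, with HIS3 in it) and the 3 core histone genes tested (0.59). Among them phosphate, splicing, ubiquitin, copper and zinc and pheromone genes had negative medians that turned positive with library totals.

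Antisense RNA was read from the mRNA's own feature at 1476 genes with no coding gene on the other strand, of which 716 had a mean count above 40. In wild type the opposite-strand feature held more counts per base than the gene's own feature at 87.2% of them. In mex67-5 xpo1-1 340 antisense RNAs were higher (47.5%) and 51 lower (7.12%), with a median log2 fold change of 0.52. Of the 716, however, 178 had a wild-type mean count of 40 or less and passed the limit only through the mutant libraries, so they had to differ, and 141 of them were higher. Another 12 passed only through the wild-type libraries, of which 7 were lower. Of the 526 with both means above the limit, 199 were higher and 44 lower. With library totals 420 were higher and 22 lower. Of the 340 higher ones, the mRNA on the other strand was higher at 65 genes, lower at 98, not past the test at 158 and not tested at the rest, with a median mRNA change of -0.09. Over all mRNAs tested, 19.3% were higher and 34.7% lower, with a median of -0.14. No link between antisense and mRNA changes is read from these counts. Over the 5 groups of mRNA abundance the median antisense change stayed between 0.46 and 0.61. These medians, like the 0.52 over all, take in antisense RNAs that passed the limit only through the mutant libraries. They are therefore not free of that selection.

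The largest antisense increases were at HIS3, with 1441, 1924 and 1728 counts in mex67-5 xpo1-1 and 30, 3 and 3 counts in wild type (6.91 ± 0.45, adjusted p = 6.84e-06), and at its divergent neighbour MRM1, with 1755, 2081 and 2044 counts in mex67-5 xpo1-1 and 55, 20 and 14 counts in wild type (5.82 ± 0.32, adjusted p = 2.87e-06). Both lie in the HIS3 region of chromosome XV, whereas the HIS3 marker was placed at mex67. Reads of that marker and of this region cannot be told apart. PAU12, one of the seripauperin genes, which share sequence and may share reads, had 130, 112 and 187 counts in mex67-5 xpo1-1 and 5, 4 and 4 counts in wild type (4.75 ± 0.28, adjusted p = 4.17e-06). These 3 passed the limit on counts only through the mutant libraries. The largest decreases were at GAS2, a spore wall glucanosyltransferase gene, with 81, 76 and 83 counts in mex67-5 xpo1-1 and 2097, 1433 and 2150 counts in wild type (-4.79 ± 0.16, adjusted p = 4.68e-07), at GEA2, with 39, 36 and 30 counts in mex67-5 xpo1-1 and 471, 303 and 484 counts in wild type (-3.80 ± 0.21, adjusted p = 3.18e-06), and at the uncharacterised YGR161W-C, with 33, 38 and 36 counts in mex67-5 xpo1-1 and 179, 124 and 159 counts in wild type (-2.34 ± 0.18, adjusted p = 1.75e-05), and GEA2 and YGR161W-C passed the limit only through the wild-type libraries. No library of 1 strain reached the range of the other for any of them, as the selection required. GEA2, a gene for a guanine nucleotide exchange factor of the Golgi, is the neighbour of URA3 on chromosome V.

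The cytoplasmic fractions were used to ask whether an mRNA's change was the same there. By the study's methods the total lysate was taken from a culture before the rest of it was fractionated, so the libraries of both fractions share cultures and their changes are not independent. Of the 1626 mRNAs called in total lysate, 1548 had the same direction in cytoplasm, 1306 passed the test there in that direction, and 13 were called in the opposite direction. The 1626 were chosen by their change in total lysate, and the same shares over all 3015 mRNAs were not counted. These counts are therefore a description only. The change itself differed between cytoplasm and total for 392 mRNAs (13.0%) by an interaction term over all 12 libraries, which took the libraries as unpaired. It was more positive in cytoplasm for 109 and more negative for 283, but for 281 and 123 with library totals, so the direction of the split depends on the scaling. The count was 258 without mutant replicate 1, 259 without mutant replicate 2, 254 without wild-type replicate 2 and 233 without wild-type replicate 3. Among mRNAs named above or by the lists, the plasma membrane proton pump gene PMA1 changed by -0.80 in total and -2.58 in cytoplasm (difference -1.78, adjusted p = 0.00273). The sterol reductase gene ERG4 changed by -1.33 in total and -3.01 in cytoplasm (difference -1.67, adjusted p = 0.00758). FLO1, a flocculin gene, changed by 2.11 in total and 0.50 in cytoplasm (difference -1.61, adjusted p = 0.00254), and HSP30 by 2.43 in total and -0.08 in cytoplasm (difference -2.51, adjusted p = 0.0382). For HIS3 (6.77 in total and 9.08 in cytoplasm) and MEX67 (2.03 and 1.86) the difference did not pass the test.

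**Figure D5:**
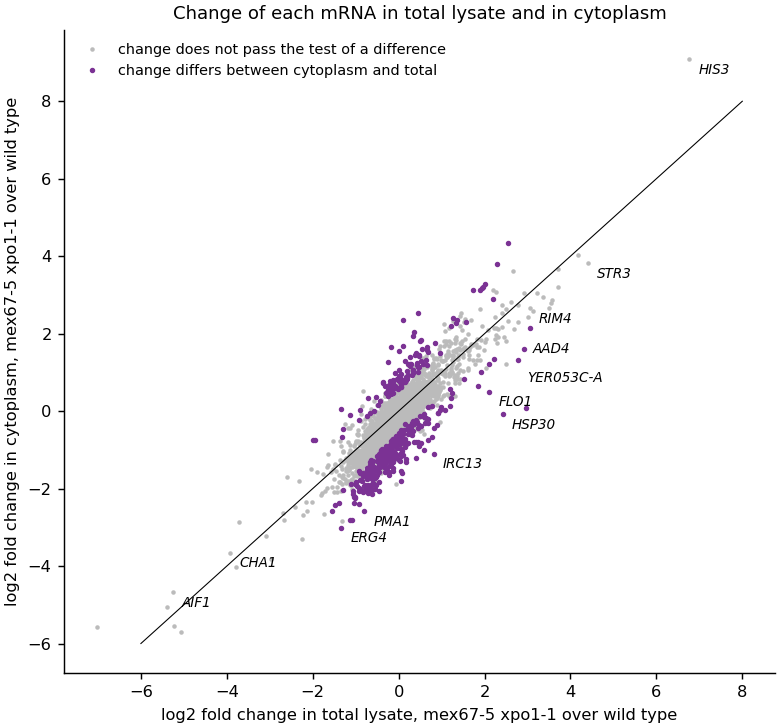
Log2 fold change of mex67-5 xpo1-1 over wild type in cytoplasm (y axis) against that in total lysate (x axis) for the 3015 mRNAs tested; purple points (392) have an interaction at an adjusted p under 0.05 and the line marks equal change. HSP30, at 2.43 in total and -0.08 in cytoplasm, and PMA1, at -0.80 and -2.58, lie below the line.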

How the data were processed

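RNA was taken from total lysate of mex67-5 xpo1-1 and wild-type cultures, 3 libraries each, and from the cytoplasm of the same cultures, 3 libraries each. Per the labels and the study's methods, the authors made TruSeq libraries, sequenced single reads, aligned them with STAR (2.5.2a) and counted reads per feature of an extended sacCer3 annotation with featureCounts (1.5.0-p1). Base calls came from bcl2fastq (2.17.1.14). The deposited values are raw counts per feature, not normalized. The labels describe a kit without strand, yet reads fell on the strand opposite to the RNA, and mRNA and antisense were assigned from that. Depth was 30881563 to 37361004 counts per library, the median mRNA held 888 to 1290.5 counts, and the spread between replicates sets the precision.

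Features whose 6 libraries averaged over 40 counts were tested with edgeR's quasi-likelihood test (edgeR 4.0.16, R 4.3.3, TMM), Benjamini-Hochberg adjusted over all 12360 features, without a replicate block. Errors of log2 fold changes are SEs. All 12 libraries entered the interaction fit, unpaired. Promoters came from the RefSeq copy of the genome, whose coding ends were within 3 bases of the deposited ones for 5979 of 5986 genes. DESeq2 (1.42.0), other scalings, filters, feature rules and leaving out each library were tried. The procedure was run on simulated counts with few changed features, as many up as down, and 1 fixed dispersion. The data had far more calls, so that run does not check the calls or their balance here. The members and the gene lists were chosen with earlier results of these data known. Named genes were strain and mating-type genes, the 12 largest changes each way, up to 4 called members per list by size of change, the 3 largest antisense changes each way and the most abundant mRNAs. Further list members were named after their values were seen.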

Additional observations from a re-analysis of the deposited data

Results flagged for a closer look

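Of the 24 mRNAs with the largest changes, 3 differed between fractions by a test of the difference itself, the interaction term of edgeR's quasi-likelihood test over all 12 libraries, which 392 of all 3015 mRNAs (13.0%) passed. The 3 of 24 are no more than that share, so they mark nothing particular to the 24. AAD4 was higher in mex67-5 xpo1-1 by 2.92 on the log2 scale in total lysate and by 1.59 in cytoplasm, a difference of -1.32, adjusted p = 0.015. RIM4 was higher by 3.06 in total lysate and 2.13 in cytoplasm, a difference of -0.92, adjusted p = 0.0225. YER053C-A was higher by 2.77 in total lysate and 1.32 in cytoplasm, a difference of -1.46, adjusted p = 0.0474. These genes were chosen by their change in total lysate, which enters the difference, so its direction is a description only.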

How the results depend on the processing

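Main counts were 581 mRNAs higher and 1045 lower, and 340 antisense RNAs higher and 51 lower. Library totals gave 884 and 531 mRNAs and 22 lower antisense RNAs. Lower antisense RNAs numbered 84 with a mean count above 10 and 94 with no filter. Testing for a fold above 1.5 left 216 and 212 mRNAs and 193 and 14 antisense RNAs. With no limit on how far the opposite-strand feature reaches outside the mRNA, 924 and 1833 mRNAs were called and 523 antisense RNAs higher. When it had to cover at least 0.8 of the mRNA, fewer genes were tested, and 267 and 476 mRNAs and 188 and 33 antisense RNAs were called. Taking the deposited names at face value, without turning the strand, gave 1246 and 676. DESeq2 gave 564 and 1048 mRNAs and 335 and 51 antisense RNAs, and leaving out features that reach a neighbouring coding gene, an alternative chosen after seeing the data, gave 489 and 859 mRNAs. Without any single library, 472 to 563 mRNAs were higher and 769 to 1062 lower, 278 to 355 antisense RNAs were higher and 34 to 45 lower, and the interaction count was 233 to 286 against 392. Named genes were not refitted under the other feature rules; under the other alternatives none that had passed the test changed sign, whereas HSP82, MET6, SPS4, TSL1 and YRA1, which had not passed it, did under 1 or more. The balance of higher to lower mRNAs turned with library totals, the deposited names and the test for a fold above 1.5, and that of the interaction calls with library totals; the cause was not tested. With culture as a block, chosen after seeing the data, the interaction count was 483; same-numbered total and cytoplasm libraries deviated together with correlations of 0.38, -0.35 and -0.19 in mex67-5 xpo1-1 and 0.25, 0.39 and 0.12 in wild type, so these numbers were not taken as pairs. Same-numbered total libraries of the strains deviated together with correlations of only 0.046, 0.052 and 0.082, so they were not paired either, and a replicate block gave 603 and 1082 mRNAs and 346 and 49 antisense RNAs.

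The comparison is limited by the strains, which differ at more loci than the export genes, by the lack of unshifted samples and spike-ins, and by the strand rule, which leaves 2815 coding genes unread. Counts near the limit of 40 are imprecise, and wide errors also occurred at high mean counts, as for HIS3 and FET3, whose libraries differed within a strain.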
